A study of Mus musculus with 24 samples.

Results

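The genes described here are 43 genes of axon guidance: the semaphorins, their plexin and neuropilin receptors, the Slit ligands and Robo receptors, and netrin-1 with its Dcc and Unc5 receptors. They were chosen by symbol. Each was read from the probe set annotated to that symbol alone, with the highest mean where several existed, and all 43 were measured among 19938 named genes. The cells were P19 mouse embryonal carcinoma cells, a pluripotent teratocarcinoma line, grown as a monolayer on gelatine-coated plates. The controls, 4 arrays whose time is not labelled, received ethanol (EtOH), the vehicle. All-trans retinoic acid, abbreviated ATRA, and BMS753, which activates RARα, were given at 1 µM. BMS641, which activates RARβ, and BMS961, which activates RARγ, were given at 0.1 µM. Each agent had 1 array at each of 2, 6, 24, 48 and 72 h, which gave 24 arrays in all. The labels do not say whether the arrays came from separate cultures. An agent's 2 and 6 h arrays, and its 24, 48 and 72 h arrays, served as its repeats. The p-values, standard errors (SE) and intervals rest on 1 spread per gene, shared by all arrays. For a gene that climbed with 1 agent and stayed flat elsewhere, that spread can be smaller than the spread of the agent's own late arrays. Its SE and p-value then look firmer than those arrays alone would give. The shared spread holds differences between the agents' time courses, and the rest of it may be technical. All values are log2 intensities as deposited, and differences are against the mean of the EtOH arrays. A level is compared only within 1 gene, because probe sets differ in brightness.

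Semaphorins are secreted, transmembrane or membrane-anchored proteins that steer growing axons and migrating cells, mostly by repulsion. Plexins are their signalling receptors, and most secreted class 3 semaphorins also need a neuropilin as the binding partner. Slits are secreted repellents read by Robo receptors, and netrin-1 attracts through Dcc and repels through Unc5 receptors. Many of these genes are also used outside the nervous system, in blood vessels, heart and epithelia. Retinoic acid acts through the nuclear receptors RARα, RARβ and RARγ and turns P19 cells away from pluripotency towards differentiated fates.

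The upstream sequences of 4 members are shown because these genes were called with at least a 2-fold late difference and differ in how many GC boxes they hold. They come from RefSeq, build GRCm38.p6, run 5′ to 3′ and end at the base before the gene's annotated start. Capitals mark GGGCGG, the GC box, on either strand, so that CCGCCC is the same box on the other strand.
Plxna2, chr1:194619579-194619790, plus strand: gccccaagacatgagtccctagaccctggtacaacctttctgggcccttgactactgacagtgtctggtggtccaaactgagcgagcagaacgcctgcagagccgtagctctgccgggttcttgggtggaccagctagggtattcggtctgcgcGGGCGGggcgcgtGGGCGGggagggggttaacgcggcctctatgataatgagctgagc
Sema3c, chr5:17574566-17574815, plus strand: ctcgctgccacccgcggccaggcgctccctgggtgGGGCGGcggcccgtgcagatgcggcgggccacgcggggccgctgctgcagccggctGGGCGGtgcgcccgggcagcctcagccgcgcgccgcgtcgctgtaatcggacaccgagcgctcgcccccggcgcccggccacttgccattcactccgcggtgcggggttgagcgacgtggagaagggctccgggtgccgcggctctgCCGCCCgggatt
Nrp2, chr1:62703067-62703316, plus strand: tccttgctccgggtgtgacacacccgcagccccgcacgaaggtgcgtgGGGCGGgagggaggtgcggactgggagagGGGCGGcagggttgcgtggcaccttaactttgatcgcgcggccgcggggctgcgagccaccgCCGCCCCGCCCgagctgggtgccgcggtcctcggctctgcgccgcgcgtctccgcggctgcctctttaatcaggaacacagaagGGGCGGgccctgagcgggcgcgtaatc
Sema3d, chr5:12382916-12383160, plus strand: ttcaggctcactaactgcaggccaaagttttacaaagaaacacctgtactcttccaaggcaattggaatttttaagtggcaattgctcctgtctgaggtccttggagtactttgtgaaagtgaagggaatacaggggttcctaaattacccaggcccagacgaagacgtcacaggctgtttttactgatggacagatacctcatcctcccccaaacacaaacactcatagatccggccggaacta
Plxna2 held 2 GC boxes, Sema3c 3 and Nrp2 5, whereas Sema3d held 0. Promoter windows of 250 bases before to 50 bases after the start were given for 34 of the 43 members. GGGCGG lay in a window of 26 of these 34 members, against 38.2% of all genes with a window. The receptor hexamer AGGTCA lay in a window of 7 members (Nrp1, Plxnb2, Plxnd1, Sema4b, Sema4d, Sema5a and Sema6b), against 18.1% of all genes. TATAAA lay in 1 member, Slit2, against 15.7% of all genes. The retinoid receptor direct repeats DR1, DR2 and DR5, a pair of hexamers with 1, 2 or 5 bases between, lay in 0 members, against 0.263%, 0.311% and 0.115% of all genes. At shares this low 0 is the likeliest count for any 34 genes, so it does not set these members apart. Each hexamer of a repeat could open with A or G and hold G or T at its middle. Every motif was searched on both strands and overlaps were counted. A match describes letters in these windows and does not show that a protein binds there.

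At 24 to 72 h, 25 of the 43 genes differed from EtOH with ATRA: 20 rose and 5 fell. The call was an adjusted p under 0.05 in limma over all 19938 genes, with the 3 late arrays of an agent set against the 4 EtOH arrays. Over all genes 36.9% were called in that comparison, 17.9% higher and 19% lower. With BMS753, 14 rose and 3 fell, and over all genes 13.5% were called, 6.52% higher and 6.94% lower. Calls with at least a 2-fold difference numbered 10 members with ATRA and 11 with BMS753, against 4.71% and 2.07% of all genes. The median log2 difference of the 43 genes was 0.30 with ATRA and 0.15 with BMS753, and over all genes it was 0.03 and -0.01. Both comparisons use the same EtOH arrays, so their values are given side by side and their overlap is not read as a result. The BMS753 count moved with the late arrays used: leaving out those of 48 h gave 8 and leaving out those of 24 h gave 27. Leaving out the arrays of 2 or of 6 h gave 11. The late differences were unchanged, and the p-values moved because the shared spread was estimated from fewer arrays, with fewer degrees of freedom. Here and below, where a call was lost without arrays outside its comparison, the difference stayed the same and only the p-value moved.

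**Figure D1:**
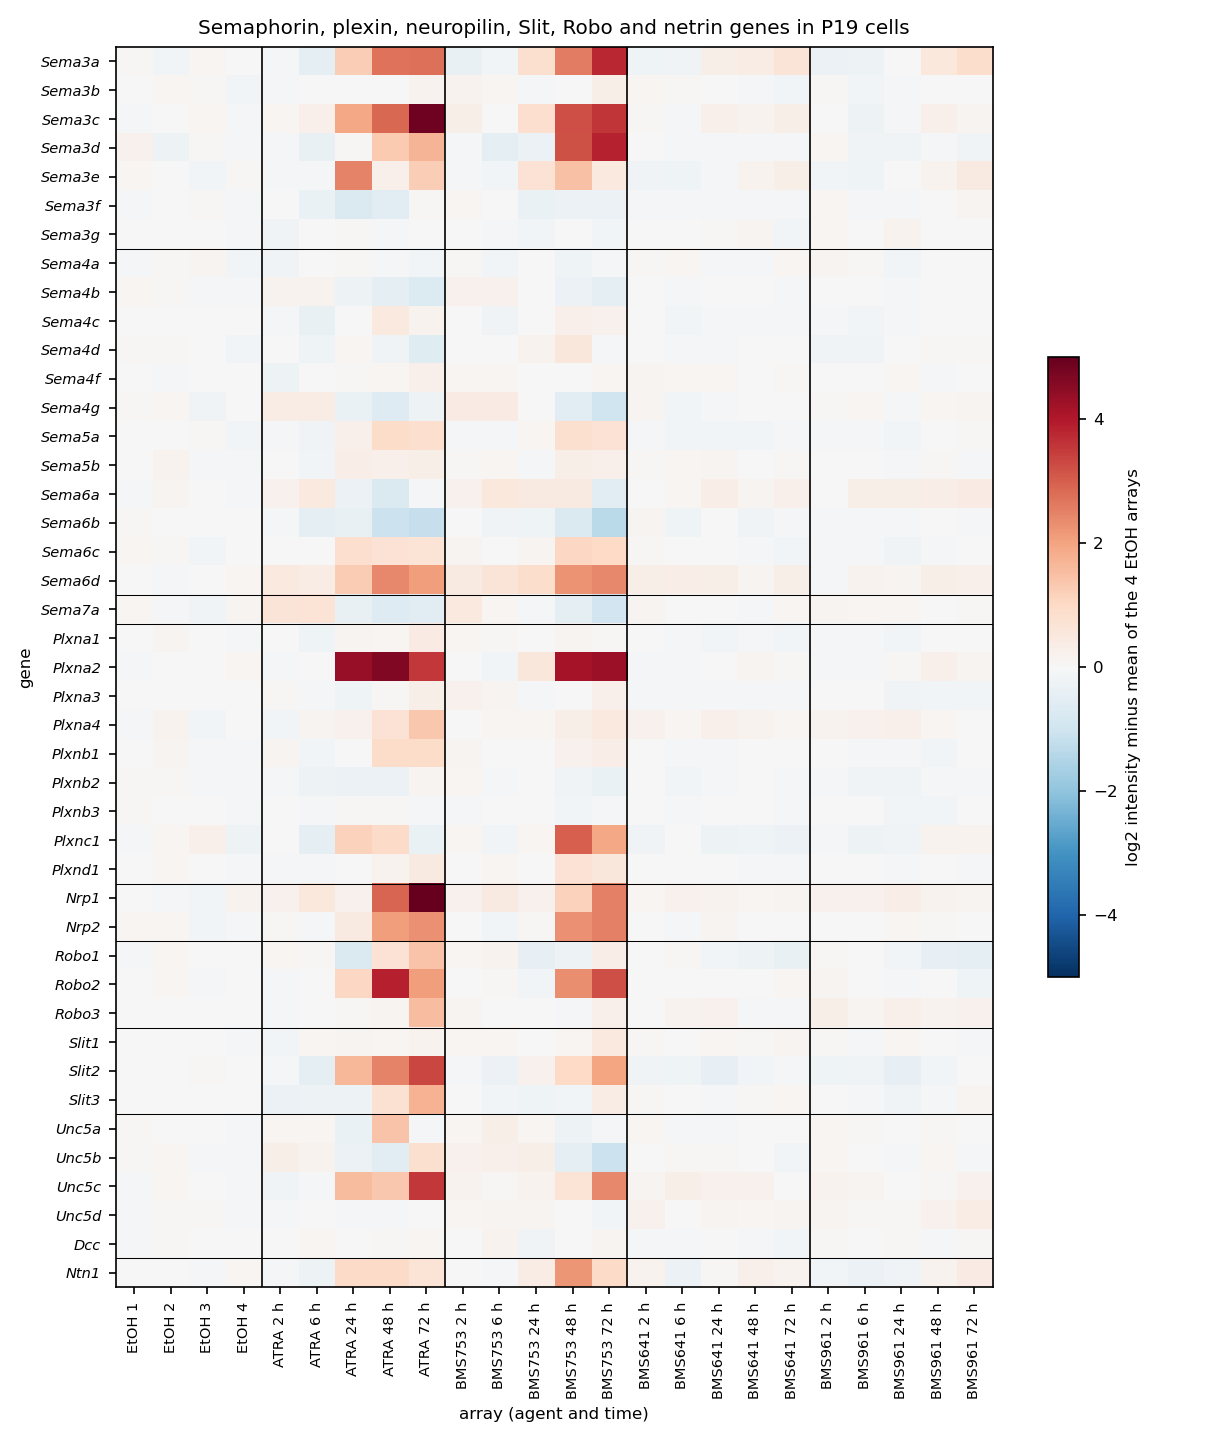
Log2 intensity minus the EtOH mean for each of the 43 genes (rows, grouped by role) on each of the 24 arrays (columns, by agent and hour), with colour running from lower to higher. The high values lie in the 24 to 72 h columns of ATRA and BMS753, Plxna2, Sema3c and Nrp1 among them, and the columns of BMS641 and BMS961 stay close to EtOH.

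Of the 7 class 3 semaphorins, the secreted ligands, Sema3a, Sema3c and Sema3e rose with ATRA and Sema3f fell, and Sema3a, Sema3c and Sema3d rose with BMS753. Sema3c, which guides neural crest and cardiac outflow cells, stood at 6.14, 6.24, 6.32 and 6.17 in the EtOH arrays. With ATRA it stood at 6.33, 6.49, 8.15, 9.08 and 11.07 at 2, 6, 24, 48 and 72 h, and with BMS753 at 6.51, 6.24, 7.05, 9.44 and 9.79. Every late array of both agents lay above the highest EtOH array, and the value grew from 24 to 72 h with both. The late difference was 3.21 ± 0.42 (SE from the shared spread, n = 3 against 4) with ATRA, adjusted p = 5.69e-05. With BMS753 it was 2.54 ± 0.42, adjusted p = 0.00128. Sema3a, the founding repellent of the class, stood between 6.63 and 6.84 in EtOH. It read 6.65, 6.32, 7.99, 9.46 and 9.52 over time with ATRA and 6.37, 6.64, 7.58, 9.30 and 10.54 with BMS753. It rose by 2.23 ± 0.30 with ATRA and by 2.38 ± 0.30 with BMS753, adjusted p = 6.70e-05 and 1.63e-04.

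Sema3d and Sema3e had other time courses. Sema3d, a ligand that acts in heart and vessel development, stood between 6.31 and 6.78 in EtOH. It read 6.51, 6.18, 6.60, 7.85 and 8.26 with ATRA and 6.46, 6.12, 6.26, 9.74 and 10.39 with BMS753, so neither 24 h array lay above the EtOH range and all later ones did. It rose with BMS753 by 2.25 ± 0.51, adjusted p = 0.00918, a call lost without the arrays of 48 or of 72 h. With ATRA the difference was 1.02 ± 0.51, adjusted p = 0.13. Sema3e, the ligand of plexin D1 that patterns blood vessels, stood between 6.30 and 6.53 in EtOH. With ATRA it read 6.35, 6.36, 8.92, 6.69 and 7.65, highest at 24 h, and with BMS753 6.33, 6.31, 7.16, 7.90 and 6.94, highest at 48 h. It rose with ATRA by 1.31 ± 0.35, adjusted p = 0.00772, and was at 0.89 ± 0.35 with BMS753, adjusted p = 0.11. Sema3f, a neuropilin-2 ligand, fell by 0.41 ± 0.11 with ATRA, a call lost without the arrays of 24 or of 48 h. Sema3b and Sema3g were called with no agent.

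Among the 12 transmembrane semaphorins of classes 4 to 6, 5 rose and 3 fell with ATRA, and 3 rose and 2 fell with BMS753. Sema6d, a class 6 ligand of plexin A1, stood at 6.21, 6.10, 6.22 and 6.30 in EtOH. It read 6.69, 6.59, 7.47, 8.63 and 8.32 with ATRA and 6.65, 6.86, 7.08, 8.47 and 8.61 with BMS753. All of these arrays, the 2 and 6 h ones included, lay above the EtOH range. The late rise was 1.93 ± 0.22 with ATRA and 1.85 ± 0.22 with BMS753, adjusted p = 1.66e-05 and 1.09e-04. The smaller rises were those of Sema6c (0.75 with ATRA and 0.71 with BMS753) and Sema5a, a thrombospondin-repeat semaphorin (0.68 and 0.54). Sema5b and Sema4c rose with ATRA by 0.30 and 0.23, and the Sema4c call was lost without the 48 h arrays or without a time term in the fit. The Sema6c call with BMS753 was lost without the 48 h arrays.

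Falls were called for 11.6% of the 43 members with ATRA, against 19% of all genes, and for 6.98% with BMS753, against 6.94%. Their number thus does not set these members apart. The members that fell were mostly transmembrane semaphorins, the role with 12 of the 43 members, and Sema7a, the class bound to the membrane by a lipid anchor. Sema6b stood at 8.16, 8.08, 8.09 and 8.12 in EtOH. It read 8.04, 7.61, 7.74, 7.04 and 6.95 with ATRA and 8.13, 7.93, 7.90, 7.38 and 6.76 with BMS753, so every late array lay below EtOH. It fell by 0.87 ± 0.15 with ATRA and by 0.77 ± 0.15 with BMS753. The array carries a pair of probe sets for Sema6b with identical values, which count as 1 measurement. Sema7a stood at 7.38, 7.24, 7.14 and 7.42 in EtOH. It read 7.93, 7.98, 6.92, 6.64 and 6.72 with ATRA and 7.78, 7.41, 7.21, 6.86 and 6.34 with BMS753. The 2 and 6 h arrays of ATRA thus lay above the EtOH range and its late arrays below it. It fell late by 0.53 ± 0.13 with ATRA and by 0.49 ± 0.13 with BMS753, the latter call lost without EtOH replicate 1 or 4 or without the 2, 6, 48 or 72 h arrays.

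Sema4g showed the same order of early and late values. It stood at 7.64, 7.64, 7.37 and 7.60 in EtOH, at 7.93, 7.91, 7.22, 6.91 and 7.30 with ATRA, and at 7.97, 7.97, 7.54, 7.05 and 6.58 with BMS753. It fell late by 0.42 ± 0.16 with ATRA and by 0.50 ± 0.16 with BMS753, and both calls were lost without EtOH replicate 1, 2 or 4 or without the 2, 6 or 48 h arrays, the BMS753 call also without the 72 h arrays. Sema4b fell by 0.46 ± 0.08 with ATRA and was at -0.25 with BMS753, adjusted p = 0.059. Sema4a, Sema4d, Sema4f and Sema6a were not called against EtOH with any agent. The second probe set of Sema4d differed in sign from the one used: 0.20 against -0.24 for ATRA late and -0.03 against 0.21 for BMS753 late.

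Plexins and neuropilins, the receptors, held the largest difference of the set. Plxna2, plexin A2, which pairs with neuropilins and class 6 semaphorins, stood at 6.87, 6.94, 6.92 and 7.02 in EtOH. It read 6.88, 6.93, 11.29, 11.55 and 10.49 at 2, 6, 24, 48 and 72 h with ATRA, and 6.90, 6.81, 7.50, 11.11 and 11.22 with BMS753. At 24 h the ATRA array was already near its highest value while the BMS753 array was 3.79 lower, and at 48 h the difference was 0.45. These are single arrays and were not tested. The late rise was 4.17 ± 0.53 with ATRA, adjusted p = 4.43e-05, and 3.0 ± 0.53 with BMS753, adjusted p = 0.00198.

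Of the 9 plexins, 4 rose with ATRA (Plxna1, Plxna2, Plxna4 and Plxnb1) and 3 with BMS753 (Plxna2, Plxnc1 and Plxnd1). Plxnc1, the receptor for Sema7a, stood at 6.76, 6.99, 7.14 and 6.60 in EtOH. It read 6.85, 6.37, 8.04, 7.84 and 6.53 with ATRA, back below the EtOH range at 72 h, and 6.98, 6.75, 6.96, 9.86 and 8.82 with BMS753. It rose with BMS753 by 1.67 ± 0.43, adjusted p = 0.0174, and was at 0.60 ± 0.43 with ATRA, adjusted p = 0.30. The BMS753 call was lost without the 2, 6, 48 or 72 h arrays. Plxna4 rose by 0.76 ± 0.17 and Plxnb1, a Sema4d receptor, by 0.61 ± 0.13 with ATRA. Plxna1 rose by 0.22 ± 0.07, a call lost without EtOH replicate 1, 3 or 4 or without the 2 or the 72 h arrays. Plxnd1, the Sema3e receptor, rose by 0.42 ± 0.11 with BMS753, a call lost without EtOH replicate 4 or without the 2, 6, 48 or 72 h arrays. Plxna3, Plxnb2 and Plxnb3 were called with no agent.

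Both neuropilins rose with ATRA, and Nrp2 also with BMS753. Nrp2 stood at 7.58, 7.60, 7.34 and 7.44 in EtOH. It read 7.54, 7.38, 7.95, 9.58 and 9.79 with ATRA and 7.52, 7.37, 7.56, 9.77 and 10.01 with BMS753, and the 24 h array of BMS753 lay inside the EtOH range. The rise was 1.61 ± 0.35 with ATRA and 1.62 ± 0.35 with BMS753, adjusted p = 0.0024 and 0.00752, the latter call lost without the arrays of 48 or of 72 h. Nrp1, which also binds VEGF, stood at 5.02, 4.98, 4.90 and 5.18 in EtOH. It read 5.22, 5.54, 5.24, 7.91 and 9.98 with ATRA and 5.22, 5.48, 5.22, 6.18 and 7.53 with BMS753, so that the high values were at 48 and 72 h. It rose by 2.69 ± 0.57 with ATRA, adjusted p = 0.00177, and was at 1.29 ± 0.57 with BMS753, adjusted p = 0.16.

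**Figure D2:**
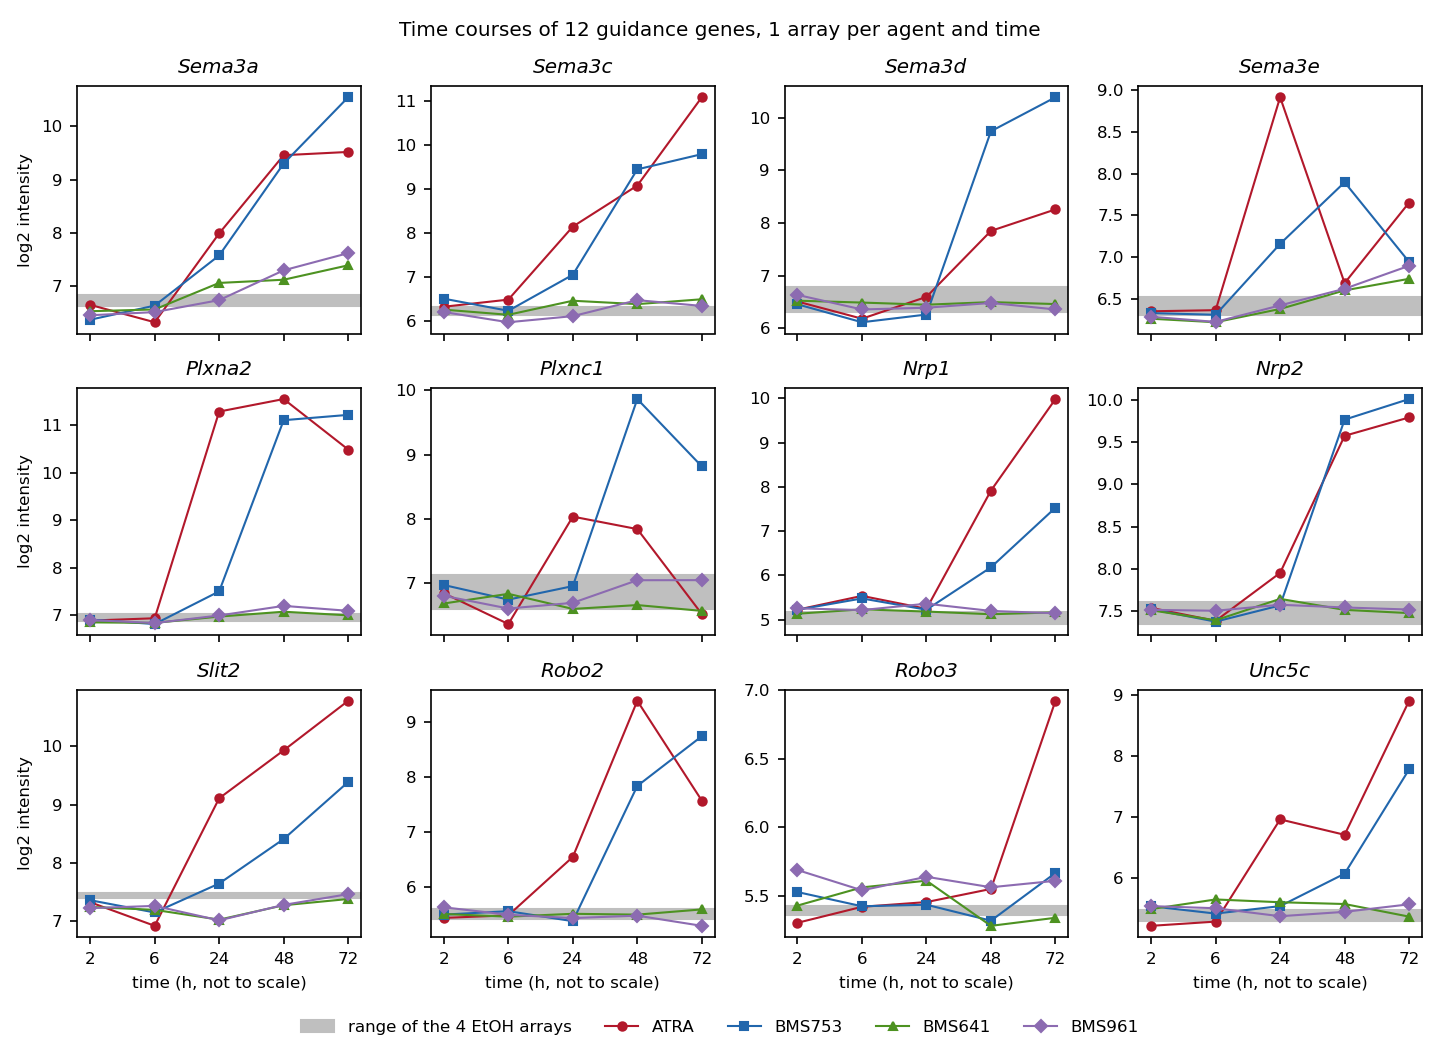
Log2 intensity (vertical axis) against hours of treatment (horizontal axis, evenly spaced and not to scale) for 12 of the genes, with 1 point per array, 1 line per agent and a grey band for the range of the 4 EtOH arrays. Plxna2 stands at 11.29 with ATRA and 7.50 with BMS753 at 24 h, Slit2 lies higher with ATRA than with BMS753 at 24, 48 and 72 h, and Sema3d and Plxnc1 lie higher with BMS753 at 48 and 72 h.

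Of the 3 Slits, Slit2 and Slit3 rose with ATRA and Slit2 with BMS753. Slit2, a secreted repellent made by the floor plate in the embryo, stood at 7.42, 7.40, 7.48 and 7.43 in EtOH. It read 7.33, 6.93, 9.11, 9.93 and 10.77 with ATRA and 7.36, 7.15, 7.65, 8.41 and 9.39 with BMS753. Every late array of both agents lay above EtOH and the 2 and 6 h arrays lay below it. The rise was 2.50 ± 0.19 with ATRA, adjusted p = 7.39e-07, and 1.05 ± 0.19 with BMS753, adjusted p = 0.00254. Slit3 stood between 7.13 and 7.19 in EtOH and read 6.88, 6.88, 6.89, 7.90 and 8.88 with ATRA, below EtOH up to 24 h and above it after. It rose by 0.73 ± 0.21, adjusted p = 0.0125, a call lost without the arrays of 48 or of 72 h. With BMS753 it was at 0.01 ± 0.21, with only the 72 h array above EtOH. Slit1 was called with no agent.

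Of the 3 Robo receptors, Robo2 and Robo3 rose with ATRA and Robo2 with BMS753. Robo2 stood at 5.46, 5.61, 5.42 and 5.51 in EtOH. It read 5.44, 5.49, 6.55, 9.38 and 7.57 with ATRA, highest at 48 h, and 5.50, 5.56, 5.38, 7.84 and 8.74 with BMS753, highest at 72 h. The rise was 2.33 ± 0.49 with ATRA, adjusted p = 0.00179, and 1.82 ± 0.49 with BMS753, adjusted p = 0.0228, and the BMS753 call was lost without EtOH replicate 1, 3 or 4, without the 2, 6, 48 or 72 h arrays or without a time term. Robo3, the receptor of commissural axons, stood between 5.36 and 5.42 in EtOH and read 5.30, 5.42, 5.45, 5.55 and 6.92 with ATRA. Its rise of 0.58 ± 0.20, adjusted p = 0.037, came mainly from the 72 h array. The call was lost without any 1 of the EtOH arrays, without the 2, 6 or 72 h arrays, without a time term and after quantile normalization, and a filter on dim genes removed Robo3. Robo1 was not called against EtOH. It stood between 9.79 and 9.93 in EtOH and read 9.92, 9.89, 9.12, 10.55 and 11.24 with ATRA, below EtOH at 24 h and above it later. Its late difference was 0.47 ± 0.29, adjusted p = 0.22.

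Ntn1, netrin-1, rose with both agents, and of its 5 receptors Unc5c alone was called. Ntn1 stood at 6.74, 6.73, 6.68 and 6.85 in EtOH, and read 6.69, 6.52, 7.72, 7.71 and 7.43 with ATRA and 6.73, 6.69, 7.12, 8.97 and 7.72 with BMS753. All late arrays of both agents lay above EtOH, and the highest was BMS753 at 48 h. It rose by 0.87 ± 0.23 with ATRA and by 1.19 ± 0.23 with BMS753. Unc5c, a repulsive netrin receptor, stood at 5.29, 5.48, 5.40 and 5.31 in EtOH, and read 5.21, 5.28, 6.96, 6.71 and 8.91 with ATRA and 5.53, 5.41, 5.54, 6.07 and 7.78 with BMS753. It rose by 2.16 ± 0.35 with ATRA, adjusted p = 2.52e-04, and by 1.09 ± 0.35 with BMS753, adjusted p = 0.0485. The BMS753 call was lost without any 1 of the EtOH arrays, without the 2, 6 or 48 h arrays, without a time term in the fit and with robust variance moderation, and a filter on dim genes removed Unc5c.

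The other netrin receptors were called against EtOH with no agent. Unc5a was 1.41 above EtOH on the ATRA 48 h array and was at 0.35 ± 0.24 over the late arrays, adjusted p = 0.28. Unc5b read 9.63, 9.54, 9.05, 8.77 and 10.13 with ATRA and 9.58, 9.59, 9.63, 8.89 and 8.26 with BMS753, against 9.26 to 9.43 in EtOH, so all of these arrays lay outside the EtOH range, some above and some below. At 72 h it was above EtOH with ATRA and below it with BMS753. Dcc, the attractive netrin receptor, lay between -0.18 and 0.16 of the EtOH mean on every treated array, and it was among the 7 members that a filter on dim genes removed (13292 of the 19938 genes were brighter).

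**Figure D3:**
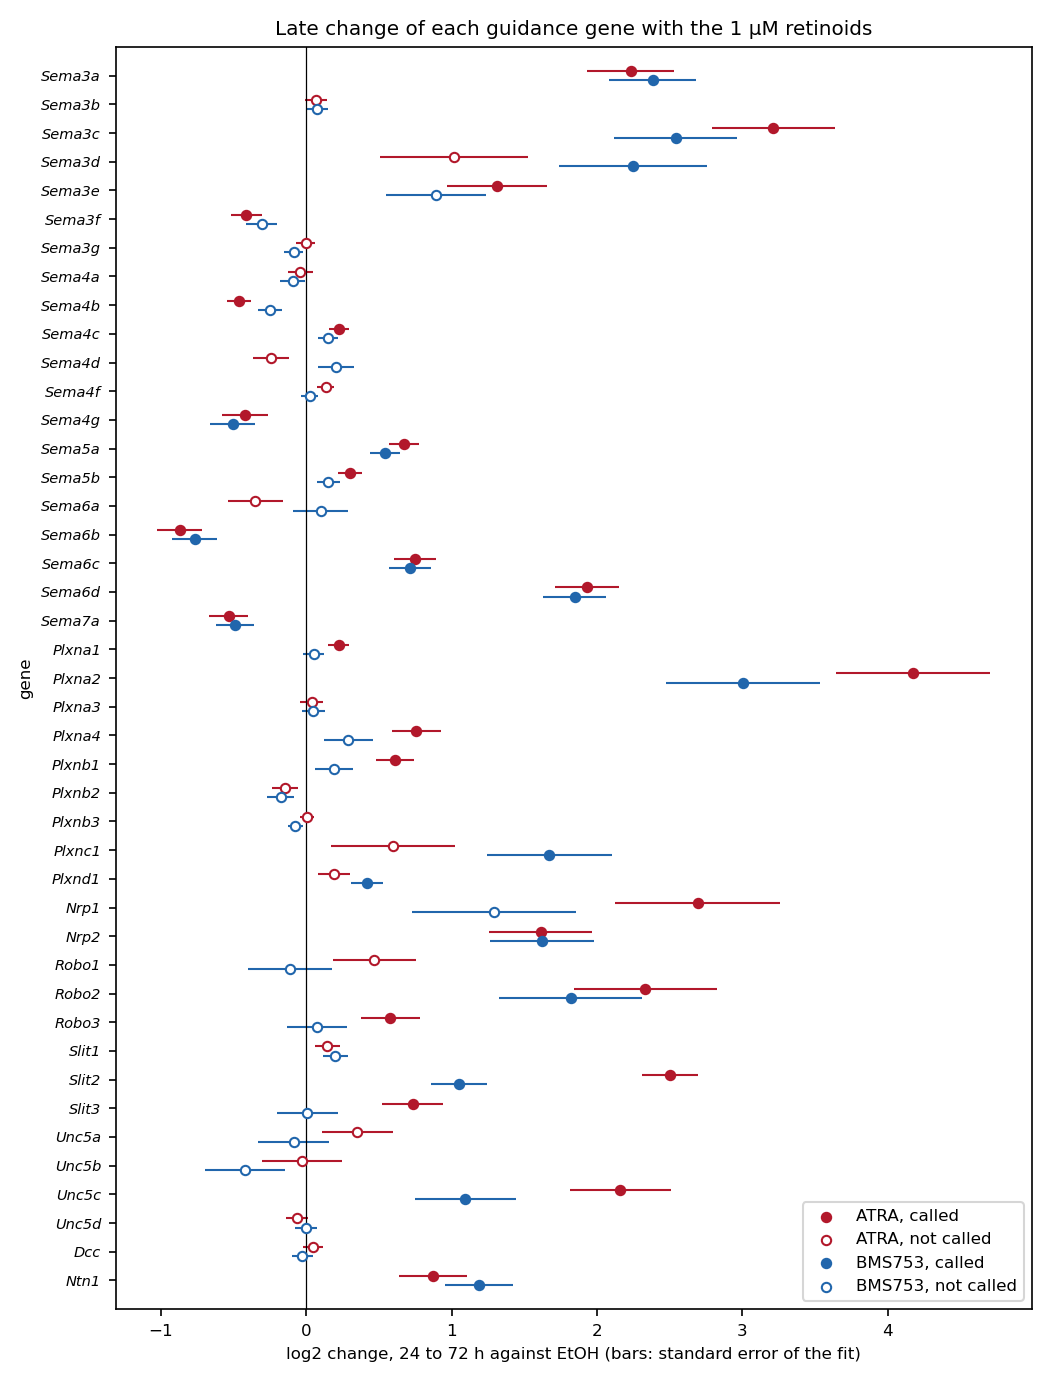
Late difference from EtOH (log2, horizontal axis) with bars of 1 standard error of the fit for each of the 43 genes (rows) with ATRA and with BMS753, where filled points passed an adjusted p of 0.05 in limma. Plxna2 stands furthest to the right at 4.17 with ATRA, and Sema6b furthest to the left at -0.87.

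The early arrays, 2 and 6 h, gave 0 called members for every agent in limma. Over all genes 0.858% were called early with ATRA (0.823% higher and 0.0351% lower), 0.306% with BMS753 (0.301% higher and 0.00502% lower), and 0.00% with BMS641 and with BMS961. Calls of at least 2-fold were 0.221% with ATRA and 0.0351% with BMS753. At an unadjusted p under 0.05 there were 3 members with ATRA (Sema4c, Sema4f and Sema7a), 3 with BMS753 (Sema4b, Sema4g and Sema6d), and 0 with BMS641 and with BMS961. Over all genes 7.93%, 10.4%, 2.35% and 2.92% passed that unadjusted threshold, so the members' counts were no more than the background. Sema7a with ATRA came nearest to a call, at 0.66 ± 0.15, adjusted p = 0.0557. Sema6d was at 0.55 ± 0.25 with BMS753, adjusted p = 0.45.

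Between the early and the late arrays, 25 members changed with ATRA, 20 upwards and 5 downwards, against 31.5% of all genes (14.9% upwards and 16.7% downwards). With BMS753, 11 changed upwards and 4 downwards, against 10.8% of all genes (3.26% and 7.57%). At least 2-fold were 13 and 9 of these members, against 4.47% and 1.69% of all genes. The largest was Plxna2, at 4.20 with ATRA and 3.09 with BMS753. Sema7a changed by -1.19 with ATRA and -0.79 with BMS753, and Sema4g by -0.78 and -0.91, more than either late difference from EtOH since their early means lay above EtOH. These counts rested on the few early arrays: without the 2 h arrays they were 11 with ATRA and 1 with BMS753, and without the 6 h arrays 10 and 1. Without the 48 h arrays the BMS753 count was 7.

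With the RARβ agonist BMS641 and the RARγ agonist BMS961, both at 0.1 µM, 0 of the 43 genes were called late in limma. Over all genes 0.00% and 0.00502% were called, and at an unadjusted p under 0.05 there were 0 members with BMS641 and 1 with BMS961 (Unc5d, at 0.22 ± 0.07), against 3.13% and 3.86% of all genes. The second probe set of Unc5d was at 0.03 with BMS961 late. The late differences ran from -0.26 (Plxnc1) to 0.43 (Sema3a) with BMS641 and from -0.35 (Robo1) to 0.46 (Sema3a) with BMS961. Sema3a, against 6.63 to 6.84 in EtOH, read 7.06, 7.12 and 7.39 at 24, 48 and 72 h with BMS641 and 6.74, 7.30 and 7.62 with BMS961. Its 95% interval was -0.20 to 1.07 with BMS641 and -0.18 to 1.1 with BMS961. Robo1, against 9.79 to 9.93 in EtOH, read 9.71, 9.59 and 9.45 with BMS641 and 9.68, 9.41 and 9.37 with BMS961, all below EtOH. Plxna2, which led with the 1 µM agents, was at 0.07 (interval -1.06 to 1.21) and 0.15 (interval -0.98 to 1.29). The width of these intervals comes from the spread shared by all arrays, those of ATRA and BMS753 included. It is not the spread of the BMS641 and BMS961 arrays alone.

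The number of members with all 3 late arrays above the EtOH range was 5 with BMS641 and 4 with BMS961, against 5.28% and 5.88% of all genes. The number with all 3 below was 5 and 2, against 4.71% and 5.98%. With ATRA these numbers were 18 above and 4 below, against 15.1% and 16.2% of all genes, and with BMS753 11 and 2, against 9.73% and 10.5%. The 1 µM and 0.1 µM agents differ in dose, so they were not compared with each other.

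BMS641 and BMS961 were compared with each other at matched dose and times, and 0 members differed in limma, with 0.00% of all genes called and 0 members at an unadjusted p under 0.05. The differences, BMS961 minus BMS641, ran from -0.14 for Sema3c (interval -1.1 to 0.83) to 0.32 for Plxnc1 (interval -0.65 to 1.29). These intervals too rest on the spread shared by all arrays, and at this width they do not show that the agonists act alike.

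A direct comparison of ATRA with BMS753 at the matched dose of 1 µM and the 3 late times called 2 members, 1 higher and 1 lower with ATRA. Over all genes 10.4% were called, 4.44% higher and 5.93% lower, and 0.717% with at least a 2-fold difference. Slit2 was higher with ATRA by 1.46 ± 0.21 (interval 1.02 to 1.89), adjusted p = 0.0014, and by 1.46, 1.52 and 1.39 at 24, 48 and 72 h. Sema4d, the CD100 ligand of plexin B1, was lower with ATRA, at -0.45 ± 0.13 (interval -0.73 to -0.17), adjusted p = 0.0422. On its second probe set the order was the opposite, at 0.20 from EtOH with ATRA late and -0.03 with BMS753 late. On the probe set used, Sema4d read 8.57, 8.30 and 7.87 with ATRA and 8.65, 9.04 and 8.39 with BMS753, against 8.37 to 8.54 in EtOH. Its call was lost without any 1 of the EtOH arrays, without the 2, 6, 48 or 72 h arrays, without a time term, after quantile normalization and with the mean of its probe sets, whereas that of Slit2 held under each alternative run. Without an EtOH array or the 2 or 6 h arrays, the Sema4d difference stayed at -0.45 and only its p-value moved. The count of members called was 14 without the 24 h arrays and 4 without the 72 h arrays.

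Other members had wide intervals in that comparison. Slit3 was at 0.73 (interval 0.25 to 1.2), adjusted p = 0.0516, and Unc5c at 1.06 (interval 0.27 to 1.85), adjusted p = 0.08. Nrp1 was at 1.40 (interval 0.11 to 2.69) and Plxna2 at 1.17 (interval -0.04 to 2.38). Sema3d and Plxnc1 had higher values with BMS753, at -1.23 (interval -2.39 to -0.07) and -1.08 (interval -2.05 to -0.10), adjusted p = 0.15 and 0.13. At 72 h, on single arrays and with no test, ATRA minus BMS753 was 2.45 for Nrp1, 1.87 for Unc5b, -2.13 for Sema3d and -2.29 for Plxnc1. Nrp2 (-0.01, interval -0.82 to 0.80), Sema3a (-0.15, interval -0.83 to 0.53) and Sema6d (0.09, interval -0.41 to 0.58) had means close to each other.

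In all, 28 members were called against EtOH in at least 1 comparison and 15 in none, and of all genes 39.7% were called in at least 1 of the same comparisons, which share the EtOH arrays. The 15 were Sema3b, Sema3g, Sema4a, Sema4d, Sema4f, Sema6a, Plxna3, Plxnb2, Plxnb3, Robo1, Slit1, Unc5a, Unc5b, Unc5d and Dcc.

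Of 74 other guidance genes, 37 rose and 12 fell with ATRA late, and 20 rose and 11 fell with BMS753 late. The shares of all genes were 17.9% higher and 19% lower with ATRA and 6.52% and 6.94% with BMS753, and the lists that follow were not tested against these shares. In the list of other netrin-family genes, receptors and co-factors, 9 of 14 rose with ATRA and 1 fell. Flrt3, an Unc5 and Robo1 partner, rose by 3.24 ± 0.28 with ATRA and 2.12 ± 0.28 with BMS753, and Dscam, a netrin receptor, fell by 0.49 ± 0.10 and 0.36 ± 0.10. Of 13 Eph receptors 4 rose and 4 fell with ATRA, from Epha3 at 2.30 ± 0.47 to Epha1 at -1.40 ± 0.23, and with BMS753 3 rose, led by Epha4 at 2.38 ± 0.28, and 3 fell. Of 8 ephrins 4 rose and 1 fell with ATRA, and Efnb1 was at 2.02 ± 0.24 with ATRA and 1.74 ± 0.24 with BMS753. Of 31 intracellular effectors 17 rose and 5 fell with ATRA and 10 rose and 4 fell with BMS753. Dpysl3, a collapsin response mediator, rose by 1.67 ± 0.16 and Mical1, a plexin-bound oxidoreductase, fell by 0.94 ± 0.14 with ATRA. Of 8 axonal adhesion genes 3 rose and 1 fell with ATRA, Ncam1 at 0.57 ± 0.20 and Nfasc at -0.83 ± 0.26, and 2 fell with BMS753. The early arrays called 1 of the 74 with each 1 µM agent, Abl1, a kinase downstream of Robo, at 1.19 ± 0.08 with ATRA and 0.92 ± 0.08 with BMS753.

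**Figure D4:**
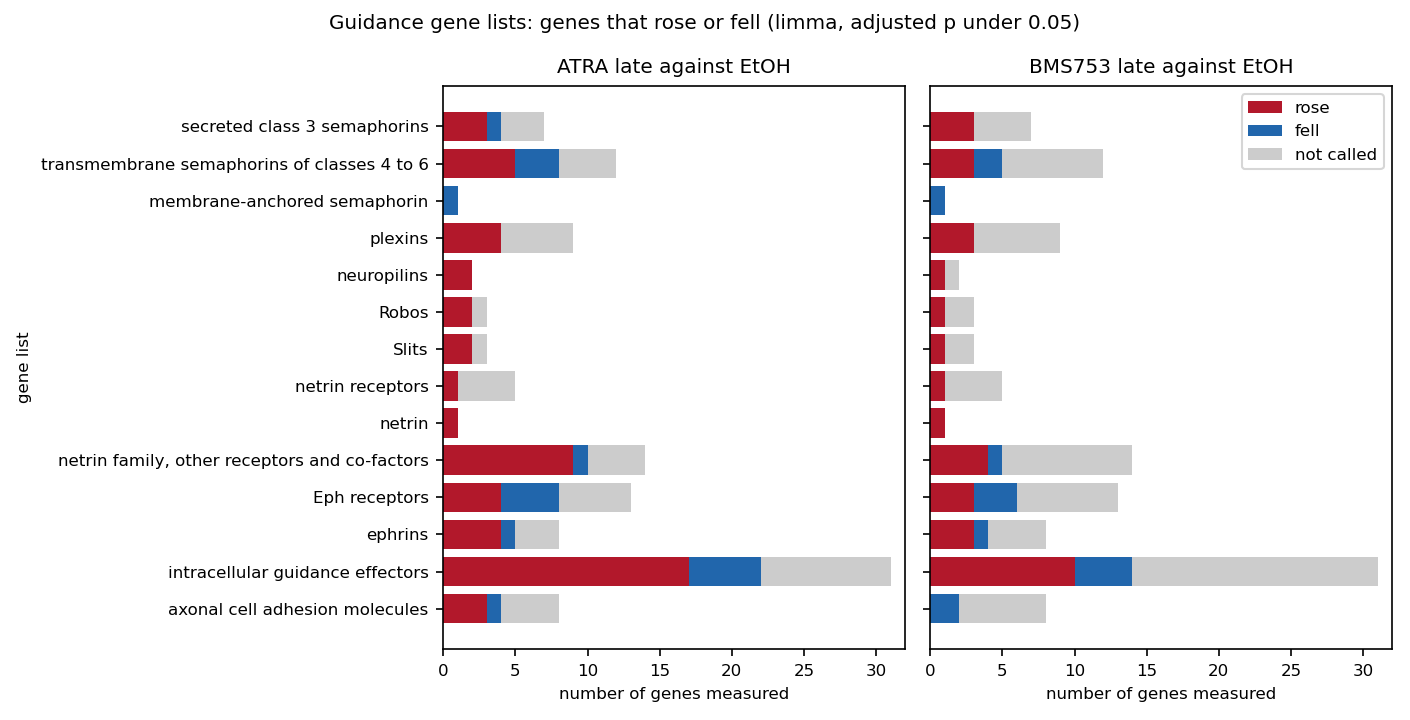
Number of genes (horizontal axis) that rose, fell or were not called late, for each role among the 43 genes and each list of other guidance genes (rows), with ATRA and with BMS753. Rises outnumber falls among the plexins, neuropilins, Robos and Slits, whereas the Eph receptors held 4 rises and 4 falls with ATRA.

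Markers of several cell types were called on the same late arrays, where 36.9% of all genes were called with ATRA and 13.5% with BMS753. By direction, 17.9% of all genes were higher and 19% lower with ATRA, and 6.52% and 6.94% with BMS753. The EtOH arrays carried the pluripotency genes Pou5f1 at 12.90, Sox2 at 11.53 and Utf1 at 11.81, whereas Zfp42 and Dppa5a stood at 4.83 and 5.49. Of 12 pluripotency genes 9 fell with ATRA and 5 with BMS753. Their mean was -0.66, -2.58 and -3.23 from EtOH at 24, 48 and 72 h with ATRA and 0.02, -0.86 and -2.06 with BMS753. Of 11 neural progenitor genes 5 rose with ATRA, led by Pax6, and 4 with BMS753, led by Pax3, and their mean reached 1.1 at 48 h with ATRA and 1.32 at 72 h with BMS753. Of 12 neuron genes 4 rose with ATRA and 1 with BMS753, and their mean at 72 h was 1.40 with ATRA and 0.02 with BMS753.

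Markers of other cell types were also among the genes called. Of 14 endoderm genes 7 rose with ATRA and 3 with BMS753, with means of 1.09 and 0.74 at 72 h. Of 10 fibroblast and smooth muscle genes 6 rose with ATRA, and their means at 72 h were 1.63 with ATRA and 0.87 with BMS753. Of 9 neural crest genes 2 rose and 1 fell with ATRA and 4 rose and 1 fell with BMS753, with means of 0.99 and 1.68 at 72 h. Of 10 endothelial genes 4 rose and 1 fell with ATRA and 1 fell with BMS753, the fall being Tek in both. Of 8 glial genes 1 rose and 2 fell with ATRA and 2 fell with BMS753. With ATRA the neuron, neural crest and glial counts, rises and falls together, were close to the share of all genes called. On the late arrays of BMS641 and BMS961 the means of these lists lay between -0.10 and 0.12. The part of any of these cell types in the guidance gene values was not tested, and in bulk RNA more cells of a type and more RNA per cell cannot be told apart.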

How the data were processed

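Affymetrix Mouse Gene 1.0 ST arrays measured RNA from 24 P19 samples, and F9 cells were not analysed here. Each deposited value is the log2 intensity of a probe set, made with Affymetrix Expression Console 1.1 per the submitters' processing notes. Their normalization is not stated in the labels, and the log2 scale was judged from the values (2.86 to 14.3). Array medians lay between 6.50 and 6.68, and precision is limited by how many arrays there are. Of 35556 probe sets, 21789 carried 1 gene symbol, 1621 several and 12146 were unnamed, and 21698 matched a RefSeq gene ID.

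The brightest probe set was kept for each of 19938 genes. In limma 3.58.1 (R 4.3.3), 1 fit with trended variance held the EtOH mean, a mean per agent for 2 to 6 h and 24 to 72 h, and time terms shared by the agents (12 residual degrees of freedom). P-values were adjusted by Benjamini-Hochberg over all genes in each of 12 comparisons, with 0.05 as the threshold. The fit was tested on simulated data, with constant shifts in the ATRA late arrays and noise sized from the EtOH arrays. The simulation held no time courses, so it does not test calls for genes that change over the late times. Every member is named or counted, with full values for members called with an absolute log2 difference of at least 1, and of the other guidance genes the leading rise and fall of each list. Ntng2, Ephb2, Ptk2 and Pak1 were not analysed here. The members and lists were chosen with earlier results of these data known, and the searches for single hexamers and the choice of sequences printed were made after values had been seen. Alternatives changed the normalization, probe sets, filter, variance model, time terms, EtOH arrays and times.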

Additional observations from a re-analysis of the deposited data

Results flagged for a closer look

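Among the 43 genes, the 4 EtOH arrays were searched for an array far from the others, a gap to the nearest array that takes up most of the range, by Dixon's 95% critical value, which chance passes in about 1 in 20 groups. Sema5a had a ratio of 0.916, with replicate 4 low at 7.45 against 7.61 to 7.63. Sema5b had a ratio of 0.858, with replicate 2 high at 6.99 against 6.74 to 6.78.

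The late and early differences of ATRA were unlike for 25 genes in limma's test of late against early, where 31.5% of all genes were called. With a size of at least 1, reached by 4.47% of all genes, the members were Plxna2 (4.20), Sema3c (3.02), Slit2 (2.81), Sema3a (2.50), Robo2 (2.37), Nrp1 (2.33), Unc5c (2.28), Nrp2 (1.65), Sema6d (1.5), Sema3e (1.40), Ntn1 (1.02), Slit3 (1.01) and Sema7a (-1.19). For BMS753 15 genes differed between late and early, where 10.8% of all genes were called. Members of at least that size, reached by 1.69% of all genes, were Plxna2 (3.09), Sema3a (2.64), Sema3d (2.51), Sema3c (2.38), Plxnc1 (1.68), Nrp2 (1.67), Sema6d (1.30), Ntn1 (1.23) and Slit2 (1.22). Both counts rested on the few early arrays: they were 11 with ATRA and 1 with BMS753 without the 2 h arrays, and 10 and 1 without the 6 h arrays.

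Between ATRA and BMS753 at the late times 2 of the 43 genes differed (4.65%, against 10.4% of all genes): Slit2 by 1.46 and Sema4d by -0.45. The Sema4d call was lost with the mean of its probe sets. Its second probe set had the opposite order, at 0.20 from EtOH with ATRA late and -0.03 with BMS753 late.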

How the results depend on the processing

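No result changed direction under the alternatives run, which did not include a gene's dimmer probe sets on their own. The counts of members called that moved by over 1.5 times were as follows. ATRA against BMS753 late gave 2 as reported, and 1 after quantile normalization, with probe sets averaged per gene, without a time term, without the 2, 6 or 48 h arrays, and without any 1 of the EtOH arrays. It gave 4 without the 72 h arrays and 14 without the 24 h arrays. Where the residual spread came from the EtOH arrays only, the counts were 22 for that comparison, 28 for BMS753 late, 3 for BMS641 late, 3 for BMS961 late (Robo1, Sema3a and Sema6a in each), 11 for ATRA early, 6 for BMS753 early and 28 for BMS753 late against early. BMS753 late gave 11 with the 2 h arrays or the 6 h arrays left out, 27 with the 24 h and 8 with the 48 h arrays left out. ATRA early gave 1 without the dimmest genes or without the 72 h arrays and 2 without the 24 h arrays, and BMS753 early gave 1 without the 24 h arrays. Late against early gave, without the 2 h arrays, 11 with ATRA and 1 with BMS753, without the 6 h arrays 10 and 1, and without the 48 h arrays 7 with BMS753. Without 1 EtOH array the counts moved less for ATRA late (22 to 23) and BMS753 late (12 to 15). The late differences from EtOH were the same with the 2 h or the 6 h arrays left out, so those late counts moved through the p-values alone. The cause of the other moves was not tested. No paired analysis was possible because only the EtOH arrays carry replicate numbers, and the agents were matched by time through the shared time terms. With 1 array per agent and time, no single time point was tested, the EtOH arrays have no time label, and the probe sets of Dcc, Nrp1, Plxnb3, Robo3, Sema4a, Slit1 and Unc5c were among the dimmest.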
